A study of Homo sapiens with 4 samples.

Results

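The γH2AX peak landscape of SK-UT1 cells exposed to OTS186935 and doxorubicin together was set against that of cells exposed to vehicle. SK-UT1 is an established human cell line from a leiomyosarcoma of the uterus, a cancer of the smooth muscle lineage. The combination cells received 1 µM OTS186935 and 0.5 µM doxorubicin, and the vehicle cells received 0.1% DMSO. In its title the series pairs the SUV39H2 inhibitor with an inhibitor of PARP, whereas the label of each library given a second drug names doxorubicin, and the drugs are named here as those labels give them. The length of exposure is not given in the sources used here, nor is it stated whether the combination cells also received DMSO. The series holds 4 libraries, the others being from cells given 1 µM OTS186935 or 0.5 µM doxorubicin alone. The peaks described are all those listed on chromosomes 1 to 22 and X in the 2 libraries compared, with overlapping or touching entries of a list merged into 1 peak. That gave 29213 combination peaks and 72858 DMSO peaks, of 209276 peaks in the 4 lists. Each condition was 1 library, so there was no spread between replicates, no difference between conditions could be tested, and values are given side by side. Intervals are exact 95% intervals that cover counting error only.

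γH2AX is the histone variant H2AX phosphorylated near its tail end by the damage kinases ATM, ATR and DNA-PK. It is laid down over broad stretches of chromatin around a double-strand break, where it holds repair factors such as MDC1. Doxorubicin intercalates into DNA and traps topoisomerase II on cut DNA, and OTS186935 inhibits SUV39H2, a methyltransferase of lysine 9 on histone H3 that has also been reported to methylate H2AX itself. Each listed peak is a short local enrichment over its surroundings, so a peak count is no measure of how much γH2AX a cell carries, and a peak over a gene says nothing of its expression. For the same reason the identity of the cells could not be checked against marker genes.

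The combination list was shorter, narrower and weaker than the DMSO list. A DMSO peak is called kept here when a combination peak overlapped it by at least 1 bp, and lost otherwise. Of the 72858 DMSO peaks, 17220 were kept and 55638 were lost, a kept share of 23.6% and a lost share of 76.4%. In the other direction, 11896 of 29213 combination peaks, 40.7%, overlapped no DMSO peak. Under combination peaks lay 18.6% of the bases that DMSO peaks covered, and under DMSO peaks lay 55.3% of the bases that combination peaks covered. Because lists of unequal length overlap unequally, the DMSO list was also cut to its 29213 peaks of lowest p, with the −log10 p of the last one at 6.57. In these lists of equal length 35.8% of the DMSO peaks were kept. The fold enrichment and the −log10 q, which gives a peak's strength over local background, are the authors' deposited values. The sequencing depth is not given in the sources used here. A whole number of fragments at each summit could be solved from the deposited fold and p in all rows, with a median of 7 fragments in combination peaks and 8 in DMSO peaks. The lowest local background was 0.428 fragments with the combination and 0.454 with DMSO, and both values are under 1 fragment.

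Sequences at the start of 6 genes are shown first, as examples of a 5′ end with a kept, a lost and a combination-only peak. They are the RefSeq promoter windows of GRCh38.p14, 250 bases before to 50 after the annotated start, read 5′ to 3′ on the gene's strand, with CG dinucleotides (CpG) in capitals because the share of 5′-end peaks that were kept differed with CpG number. MEI4, a gene of meiotic break formation in mice (chr6:77650024-77650323, plus strand), CASR, the calcium-sensing receptor gene (chr3:122183418-122183717, plus strand), and NKAPL (chr6:28259047-28259346, plus strand) had a peak over the window in both libraries. TOPAZ1, a germ cell gene (chr3:44241636-44241935, plus strand), and AURKC, the meiotic Aurora kinase gene (chr19:57230773-57231072, plus strand), had one with DMSO and no combination peak within 10 kb of that peak. GLRA3, a glycine receptor subunit gene (chr4:174829198-174829497, minus strand), had one with the combination and no DMSO peak within 10 kb.
MEI4: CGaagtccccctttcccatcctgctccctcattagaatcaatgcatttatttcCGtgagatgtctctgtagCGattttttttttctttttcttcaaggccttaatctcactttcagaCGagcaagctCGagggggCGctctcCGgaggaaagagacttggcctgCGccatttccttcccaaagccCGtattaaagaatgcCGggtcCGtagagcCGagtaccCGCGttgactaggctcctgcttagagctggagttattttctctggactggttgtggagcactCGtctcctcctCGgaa
CASR: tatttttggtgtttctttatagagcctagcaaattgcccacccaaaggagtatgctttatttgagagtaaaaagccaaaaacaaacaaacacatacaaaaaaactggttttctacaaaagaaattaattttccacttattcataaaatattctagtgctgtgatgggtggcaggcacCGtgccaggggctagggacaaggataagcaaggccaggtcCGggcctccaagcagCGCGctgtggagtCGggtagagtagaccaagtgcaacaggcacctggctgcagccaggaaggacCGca
NKAPL: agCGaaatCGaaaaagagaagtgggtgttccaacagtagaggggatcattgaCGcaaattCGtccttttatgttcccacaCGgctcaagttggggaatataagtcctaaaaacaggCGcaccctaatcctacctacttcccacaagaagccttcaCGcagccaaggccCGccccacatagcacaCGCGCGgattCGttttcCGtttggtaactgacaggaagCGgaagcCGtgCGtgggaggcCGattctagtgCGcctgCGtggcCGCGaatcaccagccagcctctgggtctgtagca
TOPAZ1: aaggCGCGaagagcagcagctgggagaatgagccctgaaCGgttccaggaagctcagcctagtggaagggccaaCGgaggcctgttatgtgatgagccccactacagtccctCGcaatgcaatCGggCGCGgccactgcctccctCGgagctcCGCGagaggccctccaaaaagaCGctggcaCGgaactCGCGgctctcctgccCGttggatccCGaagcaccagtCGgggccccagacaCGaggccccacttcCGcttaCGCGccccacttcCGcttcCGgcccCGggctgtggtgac
AURKC: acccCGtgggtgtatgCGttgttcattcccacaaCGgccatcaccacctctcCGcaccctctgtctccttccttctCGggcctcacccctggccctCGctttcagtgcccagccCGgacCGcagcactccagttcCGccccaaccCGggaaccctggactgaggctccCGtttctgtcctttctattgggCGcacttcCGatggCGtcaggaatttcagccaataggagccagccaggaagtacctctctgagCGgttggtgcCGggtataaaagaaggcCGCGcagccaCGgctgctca
GLRA3: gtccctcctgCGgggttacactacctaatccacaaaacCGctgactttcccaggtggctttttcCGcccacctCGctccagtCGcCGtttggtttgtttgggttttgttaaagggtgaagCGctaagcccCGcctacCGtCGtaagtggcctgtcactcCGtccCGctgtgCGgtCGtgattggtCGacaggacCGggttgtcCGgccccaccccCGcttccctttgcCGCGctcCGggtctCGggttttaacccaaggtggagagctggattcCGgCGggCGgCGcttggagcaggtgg

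These 6 windows held 16 CG dinucleotides in MEI4, 6 in CASR, 21 in NKAPL, 25 in TOPAZ1, 19 in AURKC and 26 in GLRA3. The MEI4 peak had a fold enrichment of 9.42 over 504 bp with the combination (chr6:77650210-77650713) and 8.68 over 620 bp with DMSO (chr6:77650202-77650821). The CASR peak was stronger and narrower with the combination, at 8.59-fold over 820 bp, against 5.77-fold over 1148 bp with DMSO. The NKAPL peak had 8.14-fold enrichment over 471 bp with the combination and 4.81-fold over 494 bp with DMSO. The TOPAZ1 peak of the DMSO list reached 9.88-fold and a −log10 q of 14.4 on 20 fragments over 867 bp, and the nearest combination peak lay 19334 bp away. AURKC had a DMSO peak of 8.55-fold over 871 bp, with the nearest combination peak 45715 bp away. GLRA3 had a combination peak of 8.41-fold on 11 fragments over 377 bp, and the nearest DMSO peak lay 84651 bp away. CASR and AURKC held a TATAAA hexamer in their windows, and NKAPL, AURKC and GLRA3 a GGGCGG hexamer, on either strand.

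Wide and strong DMSO peaks were kept most often. Over quintiles of the DMSO peaks by −log10 q, the kept share was 10.2% in the weakest quintile, 14.9%, 21.5% and 29.1% in the next ones, and 42.5% in the strongest. Over quintiles ordered by width it was 11.7% in the narrowest quintile (331 to 373 bp), 14.3%, 18.9% and 29.8% in the next ones, and 43.5% in the widest. The order by width also held within quintiles of strength. Among the strongest quintile, 21.5% of the narrowest and 65% of the widest peaks were kept, and among the weakest quintile 7.51% of the narrowest and 17.5% of the widest. With lists of equal length the kept share still climbed with width, at 18.4% for the narrowest and 57.2% for the widest quintile. By strength it was less even there, at 28.5, 26.1, 33.2, 40.2 and 50.9% from weakest to strongest.

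**Figure D1:**
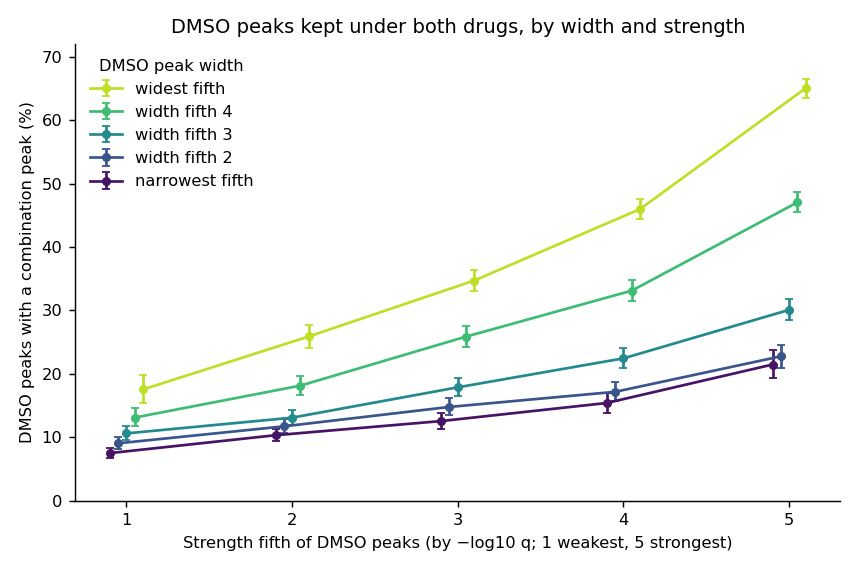
Percent of DMSO peaks overlapped by a combination peak (y axis) in quintiles of DMSO peaks by −log10 q (x axis), with 1 line per quintile of peak width; bars are exact 95% intervals of counting error. The kept share climbs with strength in each width quintile, and reaches 65% where the strongest and the widest peaks meet.

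By absolute width, 14.7% of DMSO peaks under 500 bp were kept (6176 of 42001). The share was 51.8% from 1 to 1.5 kb, 62.1% from 1.5 to 2 kb and 69.2% at 2000 bp or more, where 36 of 52 peaks were kept (95% interval 54.9 to 81.3%). DMSO peaks that held more than 1 listed summit were kept in 54.7% of 3509 cases, and those with 1 summit in 22.1% of 69349. In lists of equal length these shares were 62.4% and 33.2%. By the number of fragments at the DMSO summit, the kept share climbed and then levelled off. Peaks of 3 fragments were kept in 7.46% of cases, those of 7 in 21.6% and those of 14 in 36.5%, and those of 20 or more in 34.2%. DMSO peaks whose local background sat at the library's floor were kept in 13.2% of cases, and those at up to 1.5 times the floor in 25.3%. Those at 1.5 to 2 times were kept in 32%, and those at 2 times or more in 29.3%. In that order their median −log10 q was 2.75, 3.99, 4.24 and 3.7, and their median width 418, 459, 494 and 537 bp. What part strength and width have in these shares was not tested.

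Where both libraries had a peak at a place, the combination peak was usually the narrower and the weaker. In 17019 places 1 peak of each list overlapped 1 of the other. There the median width was 441 bp with the combination and 579 bp with DMSO. The median difference, combination minus DMSO, was −108 bp (quartiles −253 and −7 bp), and the combination peak was narrower in 13005 places, 76.4%. The shortest listed peak was 296 bp in the combination list and 331 bp in the DMSO list, and widths were not corrected for this difference in the lists' lower limit. Classed by DMSO width, which is itself 1 of the 2 widths compared, so that wider classes favour a larger difference by the choice, the medians were as follows. Where the DMSO peak was under 500 bp, they were 382 bp with the combination and 411 bp with DMSO, and where it was 1 to 1.5 kb they were 575 bp with the combination and 1146 bp with DMSO. In the 20 places with a DMSO peak of 2000 bp or more the median combination peak was 431.5 bp wide, against 2120 bp with DMSO. Median fold enrichment was 4.34 with the combination and 5.01 with DMSO, and the combination peak had the higher −log10 q in 3579 places, 21%. Summits lay close together, a median of 95 bp apart and within 100 bp in 52% of places.

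The whole lists showed the same order of widths. Median width was 397 bp with the combination and 465 bp with DMSO, and 519 bp among the 29213 DMSO peaks of lowest p. Peaks of 1 kb or more numbered 446 with the combination, 1.53% of its list, and 3706 with DMSO, 5.09%. Peaks of 2 kb or more numbered 1 with the combination and 52 with DMSO. The single combination peak of that size, 2417 bp near the end of chromosome 11, 625585 bp from the nearest coding gene end (B3GAT1), overlapped a DMSO peak of 2390 bp. The next widest combination peaks lay over CYP2E1 (1831 bp), S100B (1825 bp), IRF4 (1803 bp) and CHL1 (1765 bp), and each overlapped a DMSO peak, of 2014 bp at CYP2E1, 1907 bp at S100B, 2293 bp at IRF4 and 1893 bp at CHL1.

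The 5 widest kept DMSO peaks were chosen for their DMSO width, so a shorter combination peak follows in part from the choice, as the near-equal widths at the widest combination peaks show. At 4 of the 5 widest, 2 combination peaks overlapped the DMSO peak, and the width given is that of the wider one. Over IQSEC3, on chromosome 12, the widths were 1039 bp with the combination and 3012 bp with DMSO (chr12:154964-157975). Over LRCH2 and RBMXL3 on X the widths were 720 bp with the combination and 2907 bp with DMSO. Over PARD6G, a polarity protein gene, they were 1481 bp with the combination and 2787 bp with DMSO, and over AHRR, the repressor of the aryl hydrocarbon receptor, 1377 bp with the combination and 2730 bp with DMSO. Over SHANK3, a synaptic scaffold gene, a single combination peak of 334 bp overlapped a DMSO peak of 2721 bp. Of these 5 widest kept DMSO peaks, the one over LRCH2 and RBMXL3 had 16 fragments at its summit and the other 4 had 48 to 92. The widest lost DMSO peaks were at ZNF629 (2595 bp, nearest combination peak 36124 bp away), LMTK3 (2277 bp, 16882 bp away) and CRTAC1 (2164 bp, 28696 bp away), and nearest to INPP5A (2354 bp, 9393 bp away) and CSF2RB (2308 bp, 5726 bp away). These lost peaks had 12 to 25 fragments at their summits.

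The kept share differed less by position than by width. DMSO peaks within 1 kb of either end of a coding gene were kept in 28.7% of 7906 cases, those over no annotated gene in 24.2% of 21198, and those inside a coding gene away from its ends in 21.2% of 35513. Peaks lying directly over an annotated end were kept in 38.9% of cases (902 of 2321), with a median DMSO width of 652 bp. Those not over an end but up to 1 kb from one were kept in 24.4% (1364 of 5585), with a median of 510 bp. The share of these nearby peaks was thus close to that over no gene. In lists of equal length the shares were 54.3% over an end, 37.7% up to 1 kb away and 37.2% over no gene. Where strand was known, peaks at a 5′ end only were kept in 28.9%, at a 3′ end only in 27.1%, and those at both a 5′ and a 3′ end in 37.8%. Gene-end peaks were also wider: in the strongest quintile their median width was 638.5 bp, against 537 bp over no gene. Within that quintile 53.1% of gene-end peaks and 43.9% of peaks over no gene were kept, and in the weakest quintile 11.2% of gene-end peaks and 10.5% of peaks over no gene. When both lists were limited to peaks of −log10 q 5 or more, the order turned round, and the kept share of gene-end peaks was 0.767 times that of peaks over no gene. That limit left 2475 combination peaks and 18655 DMSO peaks. With a reciprocal overlap of 50% in the full lists, the kept share of gene-end peaks was 1.01 times that of peaks over no gene. As a share of each list, gene-end peaks made up 9.87% of combination peaks and 10.9% of DMSO peaks.

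Near chromosome ends keeping was highest in the outermost 0.5 Mb, at 37.1% (629 of 1694 DMSO peaks). It was 24.6% from 0.5 to 1 Mb and 22.1 to 23.9% in each class further in. Lists of equal length gave 48.2% in the outermost 0.5 Mb and 32.7 to 36.7% from 1 Mb inwards. DMSO peaks of the outermost 0.5 Mb were stronger than the rest, with a median −log10 q of 5.51 against 3.63 over all DMSO peaks. Within the strongest quintile, 55.9% of outermost peaks and 41.7% of peaks further in were kept. In the weaker quintiles, the kept shares of outermost peaks were 8.25, 16.5, 24.7 and 26.1% from weakest up, against 10.2, 14.9, 21.4 and 29.1% further in, with intervals that overlap. The strongest kept DMSO peaks were of this kind. The strongest of all, 784 bp close to the start of chromosome 2 (chr2:11263-12046), had a −log10 q of 10.7 on 21 fragments with the combination and 50.2 on 89 fragments with DMSO. That peak lay closest to FAM110C. A peak near the end of X, closest to VAMP7, had 10.1-fold enrichment with the combination and 13.6-fold with DMSO. The strongest lost DMSO peaks with no combination peak within 10 kb also lay near chromosome ends. They were on chromosomes 11 (−log10 q of 30.4), 4 (30) and 9 (24.9). Weaker ones of that kind lay further in as well, such as one on chromosome 1 (19). Reads at chromosome ends can belong to near-identical repeats, so the placing of these peaks is uncertain.

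Peaks found in 1 list only lay at different distances from the other list. Lost DMSO peaks lay a median of 20829 bp from the nearest combination peak, and 28.6% of them within 10 kb of one. The DMSO list is the longer one, and combination peaks that overlapped none of it lay a median of 7947 bp from the nearest DMSO peak, 57% within 10 kb. These 11896 unshared combination peaks were narrow, with a median width of 359 bp against 441 bp for the shared ones, and 0.143% of them reached 1 kb. Only 5.99% lay at coding gene ends, against 9.87% of all combination peaks, and 51.1% lay inside coding genes. Of the 100 strongest combination peaks, 93 were shared with DMSO, and of the 100 strongest DMSO peaks 88 were kept. Among the 1000 strongest the shares were 77.6% for the combination list and 63.9% for the DMSO list. The strongest unshared combination peak (chr2:125720934-125721491) had 11.3-fold enrichment on 18 fragments, 799993 bp from the nearest coding gene end, that of CNTNAP5. Others lay 5550 bp from an end of CITED1 on X (9.45-fold), inside MEGF10 (9.51-fold) and at the end of BCAS1 (7.91-fold).

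The single-drug lists give these numbers a frame, although all 3 treated libraries share the 1 DMSO library. They held 59710 peaks with OTS186935 and 47495 with doxorubicin, and a longer list can overlap more by its length alone. Of the 55638 DMSO peaks lost with the combination, 35.8% overlapped an OTS186935 peak and 26.5% a doxorubicin peak, and 52.6% overlapped neither. Of the 17220 kept DMSO peaks, 72.2% overlapped an OTS186935 peak and 62.7% a doxorubicin peak. Of the 11896 unshared combination peaks, 25.6% overlapped an OTS186935 peak and 19.8% a doxorubicin peak, and 7522, or 63.2%, overlapped a peak of none of the other lists.

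Every chromosome had fewer combination than DMSO peaks, and chromosome 13 stood lowest. The genome held 0.401 combination peaks for each DMSO peak (95% interval 0.396 to 0.406). Chromosome 13 had 232 combination peaks and 847 DMSO peaks, a ratio of 0.274 (0.236 to 0.317). It was sparse in both lists, with 2.03 combination and 7.41 DMSO peaks per Mb, against 9.64 combination and 24 DMSO peaks over the genome. Next came chromosome 22 with 661 combination and 2015 DMSO peaks (0.328), chromosome 19 with 1179 combination and 3527 DMSO peaks (0.334) and chromosome 17 with 1312 combination and 3656 DMSO peaks (0.359). X was highest, with 1133 combination peaks and 2540 DMSO peaks (0.446, 0.416 to 0.479), followed by chromosome 6 (0.443) and chromosome 4 (0.44). The single drugs gave ratios on chromosome 13 of 0.779 with OTS186935 and 0.64 with doxorubicin, where their genome-wide ratios were 0.82 with OTS186935 and 0.652 with doxorubicin.

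Cutting the lists to equal length turned the count ratio of chromosome 13 round, but not its kept share. The chromosome then had 232 combination peaks and 194 DMSO peaks. Its ratio was the highest of all chromosomes at 1.2, with an interval of 0.984 to 1.45 that includes 1. In the full lists 13.7% of its DMSO peaks were kept, against 23.6% over the genome. At equal length 21.6% were kept on chromosome 13, against 35.8% over the genome. Its DMSO peaks were weak, with a median −log10 q of 2.75 against 3.63 over the genome, and 22.9% of them stayed in the shortened list, against 40.1% over the genome. Chromosome 19 was lowest in lists of equal length, with 1179 combination peaks and 1518 DMSO peaks (0.777, interval 0.719 to 0.839). Chromosomes 22 (0.871), 11 (0.909) and 17 (0.913) also had intervals below 1, and X (1.13), chromosome 4 (1.11), chromosome 8 (1.1) and chromosome 2 (1.09) had intervals above 1. By count ratio, chromosomes 17, 19 and 22, rich in genes, thus lay in the lower range and X in the upper range with either list length. The ratio of chromosome 13 changed place with the list length, while its kept share was below that of the genome with either.

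**Figure D2:**
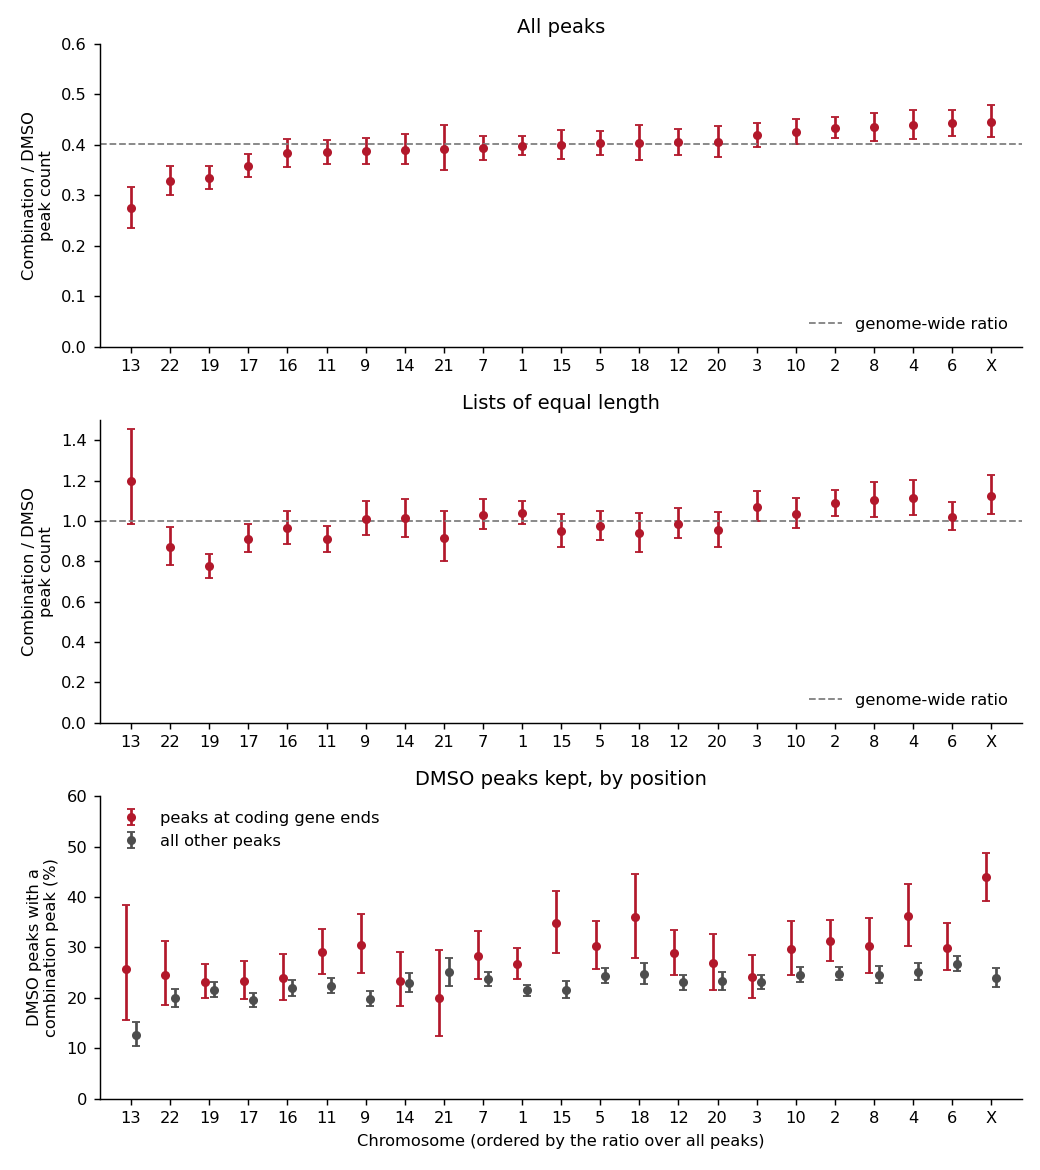
Combination over DMSO peak count per chromosome for all peaks (top) and for lists of equal length (middle), and the percent of DMSO peaks with a combination peak, for peaks at coding gene ends and for all others (bottom); bars are 95% intervals of counting error and dashed lines the genome-wide ratios of 0.401 and 1. Chromosome 13 is lowest in the top panel and highest in the middle one, and gene-end peaks of X are kept in 43.9% of cases.

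Gene ends of the X chromosome had a higher kept share than those of all autosomes pooled, and the highest of single chromosomes in the full lists but not in lists of equal length. Of 428 DMSO peaks at coding gene ends on X, 188 were kept, 43.9% (39.2 to 48.8%), against 27.8% (26.8 to 28.8%) of 7478 on the autosomes. The highest autosomes were chromosome 4 with 36.3%, 18 with 36% and 15 with 34.9%, and their intervals overlap that of X. Away from gene ends X did not stand out, with 24% kept on X and 23% on the autosomes. In each quintile of strength the share at X gene ends was the higher one: from weakest to strongest it was 24.3, 23.8, 42.7, 49.1 and 64.8% on X, against 10.9, 16.7, 24.9, 34.9 and 52.4% on the autosomes, with intervals that overlap in the weakest 2 quintiles and, barely, in the strongest. Lists of equal length gave 55.9% at X gene ends and 42.8% at those of the autosomes, with chromosome 4 (59.3%) and chromosome 18 (56.7%) above X. X gene-end peaks were wider in DMSO, with a median of 632 bp against 542 bp on the autosomes, and what part width has in the difference was not tested. Counted by gene, a gene-end peak was present at 27.2% of X coding genes with the combination and 49.1% with DMSO, against 14.2% of autosomal genes with the combination and 38.3% with DMSO. Of the X genes with a DMSO gene-end peak 48.8% had one with the combination, 75.5% with OTS186935 and 67.3% with doxorubicin, and the autosomal shares were 30.5% with the combination, 55.4% with OTS186935 and 43% with doxorubicin.

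At the scale of 1 Mb the loss was spread over the genome. Of 3043 bins, 1301 held 20 or more DMSO peaks and together 78.3% of all DMSO peaks, and all 1301 held fewer combination than DMSO peaks. The middle 80% of these bins had ratios of 0.269 to 0.553. A ratio over 1.5 times the genome-wide one was found in 57 bins, 4.38%, and one under the genome-wide ratio divided by 1.5 in 127 bins, 9.76%. Counting error is large in such bins, and the interval excluded the genome-wide ratio in 7 of the 57 and 26 of the 127. Bins with many coding genes had the lower ratios. The ratio was 0.428 in bins without a coding gene, 0.431 with 3 to 5, 0.374 with 11 to 20 and 0.349 with more than 20. In lists of equal length the ratio was 1.14 in bins without a coding gene and 0.876 in those with more than 20. By density of DMSO peaks, which is also the denominator, the ratio was 0.355 at 80 or more DMSO peaks and 0.468 at under 10, while the share of DMSO peaks kept was 24.8% at 80 or more and 25.4% at under 10.

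**Figure D3:**
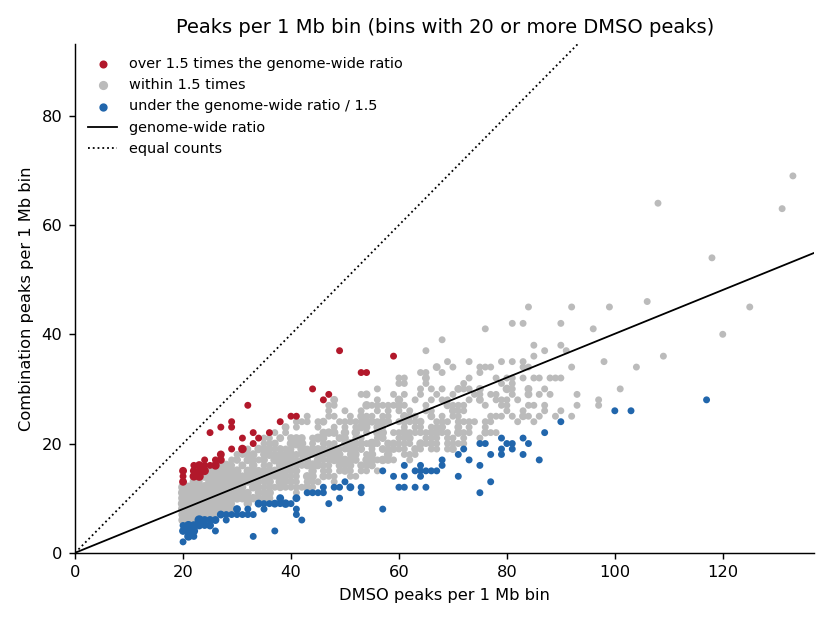
Combination peaks (y axis) against DMSO peaks (x axis) in the 1301 bins of 1 Mb with 20 or more DMSO peaks; each dot is 1 or more bins, coloured by whether the ratio is over 1.5 times, within, or under the genome-wide ratio by 1.5 times. All dots lie below the dotted line of equal counts and scatter around the solid line of the genome-wide ratio, 0.401.

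The bins furthest below the genome-wide ratio were on several chromosomes. The bin chr22:28000001-29000000, which holds TTC28, ZNRF3 and the checkpoint kinase gene CHEK2, had 3 combination peaks and 33 DMSO peaks, of which 1 was kept. On chromosome 15 a bin with DPH6 had 2 combination and 20 DMSO peaks, and on chromosome 14 a bin with DAD1, LRP10 and the matrix metalloproteinase gene MMP14 had 4 combination and 37 DMSO peaks. On chromosome 2 a bin with AFF3 and REV1, a translesion polymerase gene, had 3 combination and 22 DMSO peaks. The first 1 Mb of chromosome 11, with 50 coding genes, among them DEAF1, had 8 combination and 57 DMSO peaks. The bins furthest above had nearly as many combination as DMSO peaks. They were a bin of chromosome 12 with NUAK1, RFX4, CKAP4 and POLR3B (22 combination and 25 DMSO peaks), a bin of chromosome 16 without coding genes (23 combination and 27 DMSO), the last bin of chromosome 18 with PARD6G and ADNP2 (27 combination and 32 DMSO), a bin of chromosome 6 with CDYL (24 combination and 29 DMSO) and a bin of chromosome 9 with SHB (23 combination and 29 DMSO). Of the DMSO peaks in these high bins, 11 of 25 were kept on chromosome 12, 19 of 27 on chromosome 16 and 21 of 32 on chromosome 18. On chromosome 6 the number was 12 of 29, and on chromosome 9 it was 6 of 29. A high ratio thus need not mean that the DMSO peaks of a bin were kept. The intervals of the ratios of the high bins all lay above the genome-wide ratio, with lower bounds of 0.438 to 0.486. Among the lowest 5, the interval lay below the genome-wide ratio in the bins of chromosome 22 (upper bound 0.29), 14 (0.301) and 11 (0.296), and included it in those of chromosomes 15 and 2. These 10 bins were picked as the extremes of the 1301, so their ratios and intervals are a description. In lists of equal length, where the genome-wide ratio is 1, the low bins had 3 combination and 9 DMSO peaks on chromosome 22, 2 combination and 7 DMSO peaks on chromosome 15, 4 combination and 9 DMSO peaks on chromosome 14 and 8 combination and 13 DMSO peaks on chromosome 11, but 3 of each on chromosome 2. The high bins had 22 combination and 8 DMSO peaks on chromosome 12, 23 combination and 16 DMSO peaks on chromosome 16, 24 combination and 16 DMSO peaks on chromosome 6 and 23 combination and 13 DMSO peaks on chromosome 9, but 27 combination and 28 DMSO peaks on chromosome 18.

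At 5′ ends of genes, the kept share was lowest where the promoter held the most CpG. Of 15811 coding genes with a known strand, 1713 had a peak within 1 kb of the 5′ end with the combination and 4779 with DMSO. Of the 4779, 1402, or 29.3%, had one in both. In quintiles of the promoter windows by number of CpG, a 5′-end peak was present at 6.61% of genes with the combination and 15.2% with DMSO in the lowest quintile (0 to 6 CpG). With the combination the share was 14.4, 11.5, 11.6 and 10% in the higher quintiles, and with DMSO it was 33.1, 31.2, 35.5 and 36.2%, the highest quintile holding 34 to 69 CpG. The kept share was thus 33.2, 36.2, 30.9, 26.5 and 22.8% from lowest to highest CpG number. The DMSO peaks of CpG-rich 5′ ends were weaker, with a median −log10 q of 3.15 in the highest quintile and 3.86 in the lowest. Among 5′-end peaks in the weakest tertile by −log10 q, 10.7% were kept at promoters with 20 or more CpG and 17.1% at those with 10 to 19. In the middle tertile the shares were 24% at 20 or more CpG and 33.7% at 10 to 19, and in the strongest tertile 47.5% at 20 or more CpG and 52.4% at 10 to 19, with intervals that overlap. At promoters with under 10 CpG the shares were 16.1, 30.1 and 48.3% from the weakest tertile up, so the kept share did not fall evenly with CpG number. With lists of equal length, 39.1% (34.1 to 44.3%) were kept in the highest quintile and 46.6% (40.1 to 53.2%) in the lowest, and these intervals overlap. Quintiles 2 and 3 had 51.1% (46.4 to 55.7%) and 50% (45 to 55%), with intervals above that of the highest quintile. Quintile 4 had 44.4% (39.6 to 49.4%).

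**Figure D4:**
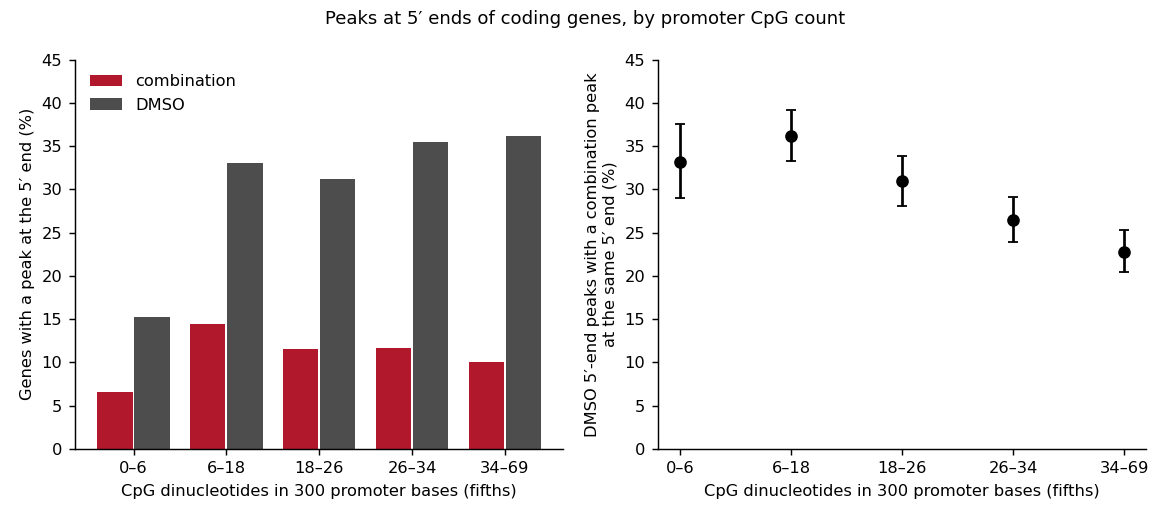
Left, percent of coding genes with a γH2AX peak within 1 kb of the 5′ end in the combination and DMSO libraries (bars), by quintiles of CpG number in the promoter window (x axis); right, percent of DMSO 5′-end peaks with a combination peak at the same 5′ end, with exact 95% intervals. DMSO bars are tallest at the CpG-rich end, at 36.2%, and the kept share is lowest there, at 22.8%.

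Of 3 short motifs, the kept share differed beyond the counting interval with GGGCGG only, and with none of them in lists of equal length. GGGCGG, searched on both strands, was present in 58.5% of all promoter windows. It was in 62.3% of windows of kept 5′-end peaks and 69.2% of those of lost ones, and the kept share was 27.2% with it and 33.7% without it. In lists of equal length it was 45.3% with it (42.5 to 48.2%) and 48.5% without it (44.8 to 52.3%). TATAAA was in 9.64% of all windows, with kept shares of 30.7% where present and 29.2% where absent. CCAAT was in 36.3% of all windows, with kept shares of 29% where present and 29.5% where absent. The GGGCGG motif contains CpG by its letters, so its difference is not separate from that of CpG number. At 3′ ends, 794 genes had a peak with the combination and 2140 with DMSO, and 576, or 26.9% of the DMSO genes, had both.

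Gene classes differed in how many gene-end peaks the 2 libraries had in common. For a gene, kept means a peak in the window of either end in both libraries, which need not be the same peak. Over all 19970 coding genes, a peak within 1 kb of either end was present at 2946 genes with the combination, 14.8%, and at 7737 with DMSO, 38.7%. Of those 7737 genes, 31.4% also had a combination gene-end peak and 68.6% did not, and 4.19% of genes without a DMSO gene-end peak had one with the combination. The classes are read against these shares and were not tested. Genes of a class can share a peak or lie in 1 cluster, and the classes were chosen with earlier results of these libraries known.

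GPR, potassium channel and neuronal genes had kept shares whose intervals lay above that of all genes in the full lists, and of these GPR genes did so in lists of equal length too. The median −log10 q of their DMSO gene-end peaks was 4.69 in GPR, 4.69 in potassium channel and 4.13 in neuronal genes. Over all DMSO gene-end peaks it was 3.53. What part peak strength has in the shares of these and the following classes was not tested. Of 71 GPR genes, which encode G protein-coupled receptors, 23 had a gene-end peak with the combination and 29 with DMSO, and 20 of the 29 were kept (69%, 49.2 to 84.7%). GPR75 had 6.67-fold enrichment with the combination and 7.31-fold with DMSO, and GPR39, a zinc-sensing receptor gene, 5.76-fold with the combination and 6.56-fold with DMSO. GPR148 (5.74-fold), GPR4, a proton-sensing receptor gene (5.57-fold), and GPR84 (5.34-fold) had their peaks with DMSO only. Of 95 potassium channel genes, 35 had a peak with the combination and 61 with DMSO, and 29 were kept (47.5%, 34.6 to 60.7%). KCNK18 had 5.25-fold enrichment with the combination and 8.34-fold with DMSO, and KCNN2 6.16-fold with the combination and 7.8-fold with DMSO. KCNH1 (6.83-fold) and KCNK5 (6.2-fold) had theirs with DMSO only. Of 14 marker genes of neurons, a lineage other than that of this line, 8 had a peak with the combination and 8 with DMSO, 6 of them in both. Those in both included SYT1, a synaptic vesicle protein gene (6.11-fold with the combination, 6.55-fold with DMSO), and ELAVL4 (5.84-fold with the combination, 5.37-fold with DMSO). Another 2 neuronal genes had a peak with DMSO only and 2 with the combination only. With lists of equal length, beside 45.3% of all genes, 14 of 18 GPR genes were kept (52.4 to 93.6%). The intervals of potassium channel genes, 21 of 39 kept (37.2 to 69.9%), and neuronal genes, 3 of 4 kept (19.4 to 99.4%), then included the share of all genes.

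Common fragile sites, where long genes break under replication stress, and epithelial genes are small lists, and most of their members with a DMSO peak were kept. Of 20 fragile site genes 7 had a gene-end peak with the combination and 8 with DMSO, and 5 were kept. WWOX had 6.22-fold enrichment with the combination and 9.15-fold with DMSO, and CNTNAP2 5.56-fold with the combination and 4.42-fold with DMSO. MACROD2 (4.01-fold) had its peak with DMSO only. Epithelial genes kept 7 of 11, among them KRT19 (2.9-fold with the combination, 5.18-fold with DMSO), while CDH1, the E-cadherin gene (6.29-fold), had a DMSO peak only. Their intervals are wide, 24.5 to 91.5% for the fragile sites and 30.8 to 89.1% for the epithelial genes, and both include the share of all genes. The median −log10 q of their DMSO gene-end peaks was 2.98 for the fragile sites and 4.36 for the epithelial genes.

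In each of the following 5 classes the kept share was below that of all genes, with intervals that include it. Of 84 cytosolic ribosomal protein genes 6 had a gene-end peak with the combination and 31 with DMSO, and 5 of the 31 were kept (16.1%, 5.45 to 33.7%). RPL10A had 2.99-fold enrichment with the combination and 6.02-fold with DMSO, while RPS12 (6.88-fold) and RPS20 (6.68-fold) had theirs with DMSO only. Mitochondrial ribosomal protein genes kept 2 of 17. Of 28 immediate early and stress genes, which respond within minutes to growth signals or damage, 2 had a peak with the combination and 20 with DMSO. The 2 kept were CCN2 (3.32-fold with the combination, 5.01-fold with DMSO) and KLF10 (4.12-fold with the combination, 4.48-fold with DMSO, in peaks 1151 bp apart). HSPH1, a heat shock gene (6.4-fold), the damage-inducible GADD45A (6.26-fold) and FOS (5.46-fold) had theirs with DMSO only. Interferon response genes kept 1 of 9, IFITM1 (4.74-fold with the combination, 5.5-fold with DMSO), and MX1 (7.19-fold) and IFI27 (6.87-fold) were lost. Genes of mitosis and licensing kept 0 of 4, the lost ones being CCNA2, PLK1, AURKB and GMNN. The upper bounds of these 5 classes were all above the 31.4% of all genes, by the least in immediate early and stress genes (31.7%) and cytosolic ribosomal protein genes (33.7%). The median −log10 q of their DMSO gene-end peaks was 3.7 in cytosolic and 2.75 in mitochondrial ribosomal protein genes. It was 4.05 in immediate early and stress genes, 4.12 in interferon response genes and 5.57 in genes of mitosis and licensing.

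**Figure D5:**
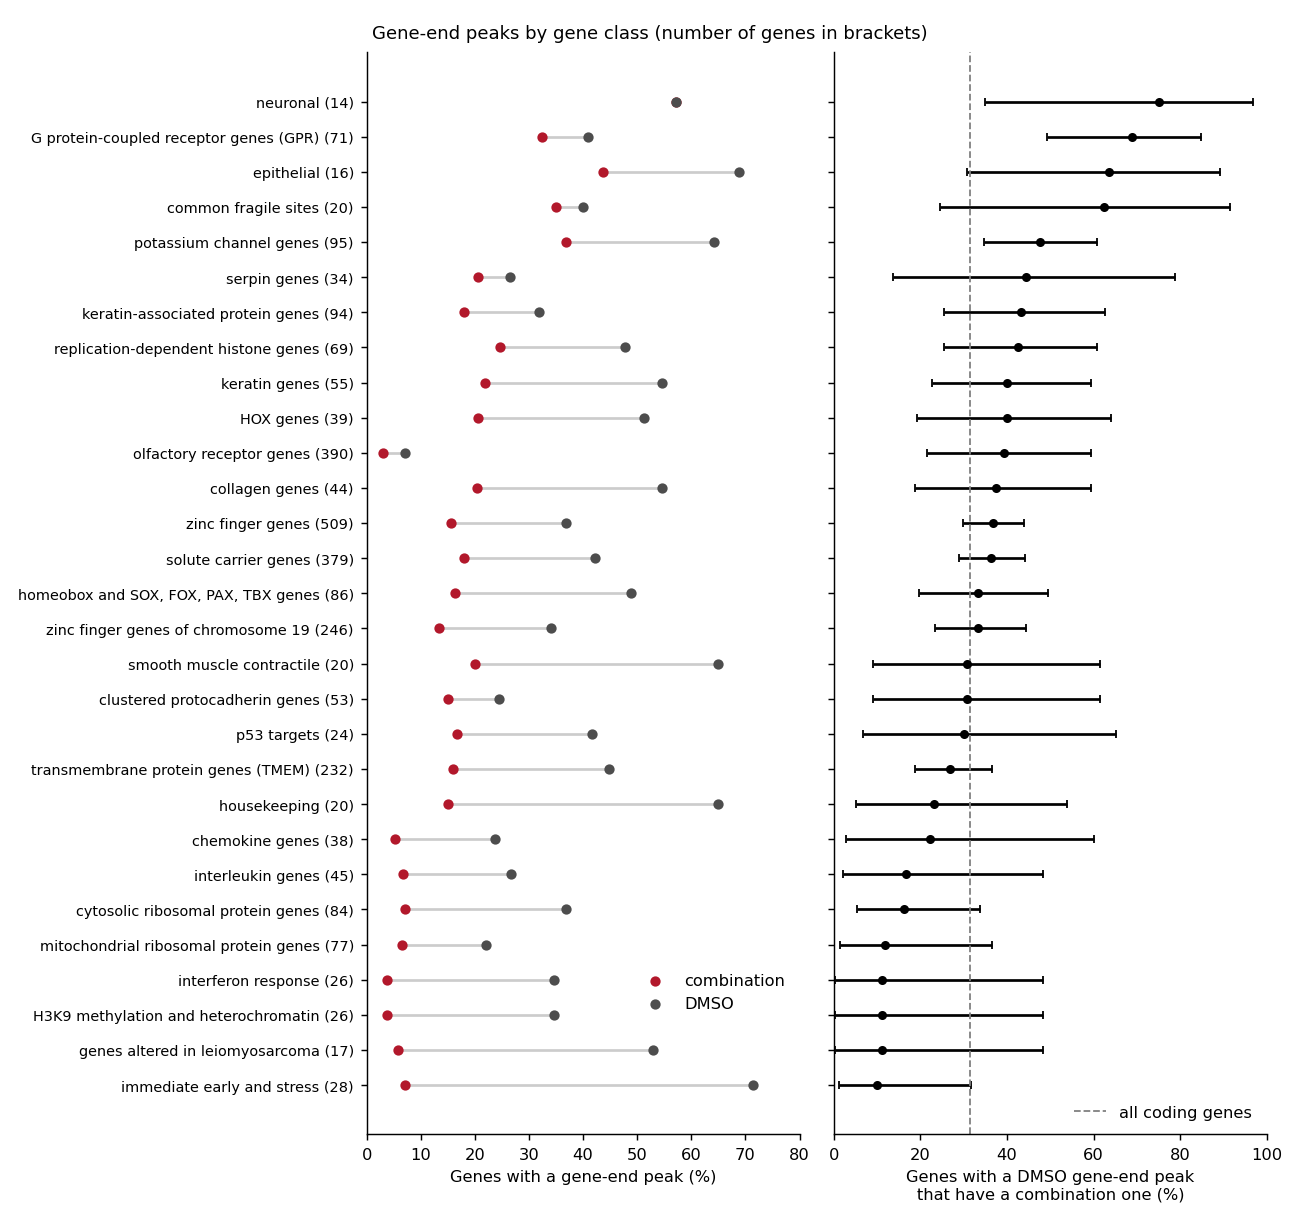
Percent of genes of each class with a gene-end peak in the combination and DMSO libraries (left), and percent of the DMSO genes with a combination gene-end peak as well, with exact 95% intervals (right); classes with 8 or more DMSO genes are shown, with the number of genes in brackets. GPR genes (69%) lie to the right of the dashed line of all coding genes (31.4%), and immediate early and stress genes (10%) to its left with an interval that reaches it.

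Genes tied to the tumour, the drugs and the mark itself gave small counts. Of 20 smooth muscle contractile genes, the lineage of this tumour, 4 had a gene-end peak with the combination and 13 with DMSO. All 4 were among the 13: DES, the desmin gene (4.93-fold with the combination, 7.15-fold with DMSO), SRF (2.99-fold with the combination, 4.09-fold with DMSO), and CALD1 and MYLK, each with 5.54-fold with the combination and 3.44-fold with DMSO. The CALD1 and MYLK peaks each rested on 7 fragments with the combination and 4 with DMSO. The SRF peaks of the 2 libraries lay 60 bp apart and did not overlap. The SRF peak with the combination rested on 5 fragments, with a −log10 q of 1.1. ACTA2, the smooth muscle actin gene (7.22-fold), CNN1 (5.2-fold) and SMTN (4.88-fold) were lost. Of 26 genes of H3K9 methylation and heterochromatin 1 had a peak with the combination and 9 with DMSO. The 1 gene in both was EHMT2, a H3K9 methyltransferase gene, with 3.31-fold enrichment at its 3′ end with the combination and 3.54-fold at its 5′ end with DMSO, which are separate peaks. Among topoisomerase genes TOP2B (4.13-fold) and TOP1 (3.41-fold) had DMSO peaks only, and SPO11, the meiotic relative, had 6.78-fold enrichment with the combination and 7.42-fold with DMSO. The H2AX gene had a DMSO peak only (4.07-fold), BRCC3 had peaks in both (4.65-fold with the combination, 6.78-fold with DMSO), and RNF8, a ubiquitin ligase of the γH2AX response, a combination peak only (3.57-fold on 5 fragments). p53 target genes kept 3 of 10, namely AEN, SESN2 and BBC3. Genes altered in leiomyosarcoma kept 1 of 9, genes of homologous recombination 1 of 5, genes of end joining and PARP 1 of 4, immune genes 3 of 6 and housekeeping genes 3 of 13.

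The large families had intervals that include the share of all genes. Zinc finger genes kept 69 of 188 (36.7%, 29.8 to 44%), solute carrier genes 58 of 160 (36.2%, 28.8 to 44.2%) and TMEM genes 28 of 104 (26.9%, 18.7 to 36.5%). Olfactory receptor genes rarely had a gene-end peak, 12 of 390 with the combination and 28 of 390 with DMSO, and 11 were kept. HOX genes kept 8 of 20, collagen genes 9 of 24, keratin genes 12 of 30, keratin-associated protein genes 13 of 30 and replication-dependent histone genes 14 of 33. Homeobox, SOX, FOX, PAX and TBX genes kept 14 of 42, the zinc finger genes of chromosome 19 28 of 84, clustered protocadherin genes 4 of 13, serpin genes 4 of 9, interleukin genes 2 of 12, chemokine genes 2 of 9 and beta-defensin genes 1 of 2. Histone and keratin-associated genes are near-identical copies in clusters, so the placing of their reads is uncertain.

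At single genes the highest combination fold with a DMSO peak in the same window was at SCAF4, with 11-fold enrichment and a −log10 q of 13.4 with the combination, against 9.62-fold and 12 with DMSO. At LONRF1 the folds were 8.82 with the combination and 8.16 with DMSO, at ZNF772 8.64 with the combination and 6.4 with DMSO, and at SLC25A31, a germ line ADP/ATP carrier gene, 8.47 with the combination and 7.53 with DMSO. LCE1C, a skin barrier gene, had 8.14-fold with the combination and 6.15-fold with DMSO. In all 8 genes chosen by this rule the combination fold was the higher one, whereas over the one-to-one places the median fold was the lower one. The rule picks high combination folds, so that order is set in part by the choice. The strongest DMSO gene-end peaks without a combination peak within 10 kb were, beside TOPAZ1 and AURKC, those of KCNJ18 and ZNF597 (each 10.5-fold on 15 fragments), IQCF6 and PRKCE (each 10-fold), USP29 (8.6-fold) and ITGAL, an integrin gene of leukocytes (8.66-fold). KCNJ18 has near-identical copies and its placing is uncertain. In the other direction stood, beside GLRA3 and BCAS1, CTAGE1 (8.31-fold), TDRD15, a tudor domain gene (8.01-fold), BATF3 (7.47-fold) and SLC25A51, the mitochondrial NAD carrier gene (7.47-fold).

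Non-coding genes were covered less often in both libraries. A peak lay over 42.1% of 19970 coding genes with the combination and 68.7% with DMSO, over 18.1% of 18177 long non-coding RNA genes with the combination and 34.5% with DMSO, and over 5.62% of 16458 pseudogenes with the combination and 11.4% with DMSO. Of genes covered in DMSO, 57.4% of coding genes, 43.5% of long non-coding RNA genes and 39.4% of pseudogenes were covered with the combination as well. Longer genes have more room for a peak, and the median length was 24190 bp for coding genes, 9083 bp for long non-coding RNA genes and 716 bp for pseudogenes. The very short microRNA genes had a peak over 39 of 1911 with the combination and 117 with DMSO, with 21 in both, and small nucleolar RNA genes over 2 of 1196 with the combination and 19 with DMSO, with 1 in both.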

How the data were processed

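γH2AX peak lists of 4 SK-UT1 libraries, 1 a condition, were used, 2 of them compared. Chromatin was cross-linked, sheared by sonication and precipitated with an antibody to phosphorylated H2A.X, and libraries were made with a ThruPLEX kit, per the labels' protocols. Per the submitters' processing notes, the tools were MACS2 2.2.7.1 (a peak caller), Bowtie2 2.4.2 (an aligner), bedtools 2.30.0 and Picard 2.25.3, with the build hg38; the options and any input library are not given there. The deposited columns used were the positions, the fold enrichment (a ratio over local background) and the −log10 p and −log10 q; the deposited score, checked against 10 times the −log10 q, was not used further. Peaks were listed per library.

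Overlapping or touching entries were merged, keeping the highest values; kept means an overlap of at least 1 bp. The whole number of fragments at a summit was recovered by matching fold and −log10 p, as deposited, to a Poisson tail within 0.002, in 100% of rows; 1402 combination and 575 DMSO rows had more than 1 match, and the closest was taken. Precision is limited by depth, which is not stated. Gene positions and promoter windows came from RefSeq tables of GRCh38.p14; strand was known for 15811 of 19970 coding genes (79.2%). Shares carry exact Clopper-Pearson intervals, and ratios of counts exact conditional ones. Bins were 1 Mb with 20 or more DMSO peaks. The named genes were, among others, the 8 highest by combination fold in both lists, the 8 highest by −log10 q in 1 list with none of the other within 10 kb, up to 4 kept and 4 lost members of each class by DMSO fold, genes in the 5 bins furthest up and down, and genes at the 5 widest peaks kept and lost. H2AX, BRCC3 and RNF8 fall under the class rule, and B3GAT1, CYP2E1, S100B, IRF4, CHL1, CNTNAP5, CITED1, MEGF10, FAM110C and VAMP7 were chosen after their values were seen. The comparison, the 36 gene classes (16 lists and 20 families found by symbol) and these rules were chosen with earlier results of these data known. Alternatives were equal list length, −log10 q of 5 or more, reciprocal overlap, joined or unmerged rows, all contigs, other windows and bins. No cell type markers can be checked from peaks, and no test between conditions was possible. Computation used Python 3.11.15 with numpy 2.4.6, pandas 2.3.3 and scipy 1.17.1; overlap and merging were tested on simulated lists against bedtools 2.31.1.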

Additional observations from a re-analysis of the deposited data

How the results depend on the processing

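Of 53 recomputed values, 35 stayed within the counting interval of a share, the quartiles of the width difference or 1.5 times a ratio, 17 moved further and 1 reversed. For ratios near 1 the limit of 1.5 times is wide and can miss the loss of a difference. Gene ends over intergenic peaks, 1.18, was 1.01 with a reciprocal overlap of 50%. The outermost 1 Mb over the rest, 1.33, was 1.07 with the outermost 5 Mb. Both were counted as having stayed. The kept share of DMSO peaks, 23.6%, became 35.8% in lists of equal length, 6.56% at −log10 q of 5 or more, 18.4% with a reciprocal overlap of 50%, 24.2% with rows within 1 kb joined and 25.3% without merging. The shared share of combination peaks, 59.3%, became 36.1% at equal length, 49.4% at −log10 q of 5 or more and 45.8% with reciprocal overlap. The kept share in the strongest over the weakest quintile, 4.18, was 1.79 at equal length. That in the widest over the narrowest quintile, 3.73, was 2.66 with a reciprocal overlap of 50% and was counted as having stayed. At −log10 q of 5 or more, the widest over the narrowest quintile, 3.73, was 1.95, the highest over the lowest chromosome ratio, 1.63, was 3.36, and bins past 1.5-fold, 14.1%, were 69.1%; gene ends over intergenic peaks, 1.18, reversed to 0.767. Bins past 1.5-fold were 3.99% with bins of 5 Mb and 11.2% with 40 DMSO peaks a bin. Genes with a kept gene-end peak, 31.4%, were 45.3% at equal length, 6.03% at −log10 q of 5 or more and 36.7% with windows of 2.5 kb. Fewer peaks enter under the stricter limits, with 2475 combination and 18655 DMSO peaks left at −log10 q of 5 or more. The causes were otherwise not tested. Equal length also moved chromosome 13 to the top of the chromosomes by count ratio, though not by kept share, as reported above. No paired analysis was possible because each condition had 1 library.

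Shallow libraries limit all of this: peaks rest on a median of 7 fragments with the combination and 8 with DMSO. No input, replicate or assembly gap list was used. Neighbouring peaks and clustered genes are not independent, so intervals are too narrow. The shortest listed peak differed between the lists, at 296 bp with the combination and 331 bp with DMSO. Gene ends of 1 kb windows hold 5′ and 3′ ends together where strand was unknown.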
